A study of Mus musculus with 10 samples.

Results

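RNA was compared between 2 sorted fractions of stomach corpus epithelium from mice carrying the R122C change in RUNX3: an Iqgap3-high fraction (IQ3pos) and an Iqgap3-low or negative fraction (IQ3neg). The comparison took 4 of the 10 libraries of the series, R122C IQ3pos replicates 1 and 2 against R122C IQ3neg replicates 1 and 2, and the 13572 of 55276 listed genes that were above 0 in at least 2 of those 4. Another 3704 genes were above 0 in 1 of the 4 and 38000 in none, and these were not tested. The members were chosen by the labels of the libraries and not by a measured value.

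The series asks how the R122C change affects isthmus stem cells of the stomach. All mice were C57BL/6, 6 to 8 weeks old, and carried an Iqgap3-2A-tdTomato reporter, in which the Iqgap3 gene also makes a red fluorescent protein. The R122C groups carried Runx3 R122C with that reporter, and the labels do not say whether on 1 or both alleles. The WT groups, used here for the estimate of spread and for comparison, carried the same reporter with wild-type Runx3 (n = 3 IQ3pos and 3 IQ3neg). Living cells stained for EpCAM, an epithelial surface protein, were sorted by tdTomato, so the fractions are defined by a reporter threshold. Each R122C library was a pool of 3 mice. Titles also carry a 4-digit code, shared by both replicate 1 libraries and another by both replicate 2 libraries of R122C, and no label says what it stands for. Where nothing states that pools are separate animals, the p-values measure only the spread between these libraries.

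The corpus gland is renewed from dividing cells in its isthmus, a narrow zone between the surface and the gland neck. Progeny that move up become mucus-making pit cells, while parietal cells secrete acid, mucous neck cells give way to enzyme-making chief cells at the base, and hormone-making enteroendocrine cells and chemosensory tuft cells lie scattered between them. IQGAP3 is a scaffold protein made by dividing cells and has been used to mark isthmus stem and progenitor cells. RUNX3 is a transcription factor whose Runt domain binds DNA together with its partner CBFB.

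The authors' library totals, recovered from the step between CPM values, were 176450820 and 261525644 reads in R122C IQ3pos, 172885551 and 235498202 reads in R122C IQ3neg, and between 47432129 and 264816271 reads over the 10 libraries. IQ3pos had fewer genes above 0 (11879 and 12369) than IQ3neg (14163 and 13281). The top gene was Actb in both IQ3pos libraries and Clps in both IQ3neg libraries. Epcam, the gate gene, was at log2 CPM 9.25 and 8.99 in IQ3pos and 8.87 and 8.88 in IQ3neg, a difference of 0.24 ± 0.46 (SE, n = 2 against 2, limma adjusted p = 0.904). Keratins Krt8 and Krt18 were above log2 CPM 10 in all 4 libraries, and of 8 epithelial markers Cldn7 alone was listed at 0 in any of them (2.21 and 0 in IQ3pos, 4.09 and 4.05 in IQ3neg).

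Iqgap3 itself, the gene behind the sort, was at log2 CPM 2.28 and 0 in IQ3pos and at 0.22 and 0 in IQ3neg. A listed 0 stands for any value below 1 CPM. The fractions therefore overlapped for this transcript (limma adjusted p = 0.78), and in WT it was above 0 in 1 of 6 libraries, IQ3pos replicate 2 with 3.16. The 3 libraries with Iqgap3 above 0 shared 1 title code. The relatives Iqgap1 and Iqgap2 were measured more deeply. Iqgap2 was at 6.81 and 7.36 in IQ3pos and 5.57 and 5.97 in IQ3neg, and Iqgap1 at 9.69 and 8.87 against 8.65 and 8.45, without overlap and without passing the test (adjusted p = 0.49 and 0.649). Runx3 was listed at 0 in all 4 R122C libraries and could not be tested, so its transcript does not check the genotype. Its partner Cbfb was at 5.68 and 6.14 in IQ3pos and 4.74 and 5.22 in IQ3neg (adjusted p = 0.819). Runx1 was at 4.85 and 3.53 against 4.99 and 5.60 (adjusted p = 0.79), and Runx2 was at 0 in all 4.

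In R122C, IQ3pos cells held more RNA for Top2a and Asf1b, which serve chromosome and chromatin duplication, and less RNA for 4 of 10 hormone genes tested, 11 of 25 endocrine granule and amine genes, 4 of 20 pancreatic-type enzymes, 8 of 38 immunoglobulin genes and Cblif. At a limma adjusted p under 0.05, 63 of 13572 genes (0.464%) differed: 6 were higher in IQ3pos (0.0442%) and 57 were lower (0.42%). In all 63 the libraries of the fractions did not overlap, which was also so for 27.4% of all tested genes in the higher direction and 18.5% in the lower direction. At an unadjusted p under 0.05 there were 541 higher and 907 lower genes. Since these are bulk fractions, fewer cells of a type and less RNA per cell cannot be told apart in any of these results.

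Of the 57 genes that fell, 23 were above 0 in all 4 libraries, with falls of 6.29-fold (Tmed6) to 96.1-fold (Pnliprp1). Another 12 were at 0 in 1 IQ3pos library and 22 in both, so their differences rest on the 1 CPM floor. A gene at 0 in both libraries of a fraction was tested only if both libraries of the other were above 0, so its direction and lack of overlap were fixed by the filter. This was so for 982 tested genes at 0 in both IQ3pos libraries and 173 at 0 in both IQ3neg libraries. Of the 12590 tested genes above 0 in an IQ3pos library, 1527 did not overlap in the lower direction. That is the background for the list counts below that leave out genes fixed by the filter. The calls depended on single libraries. Leaving out IQ3pos replicate 1 left 8 higher and 26 lower genes, IQ3pos replicate 2 left 4 and 13, IQ3neg replicate 1 left 1 and 13, and IQ3neg replicate 2 left 0 and 16. Only Sst, Chga and Map1b passed in every one of these 4 fits. With the 4 R122C libraries fitted alone, 1 gene was higher and 13 were lower, and 11 of the 63 were among them. Leaving out WT IQ3neg replicate 1, which enters only the spread, gave 13 higher and 59 lower genes, with 53 of the 63 still called.

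**Figure D1:**
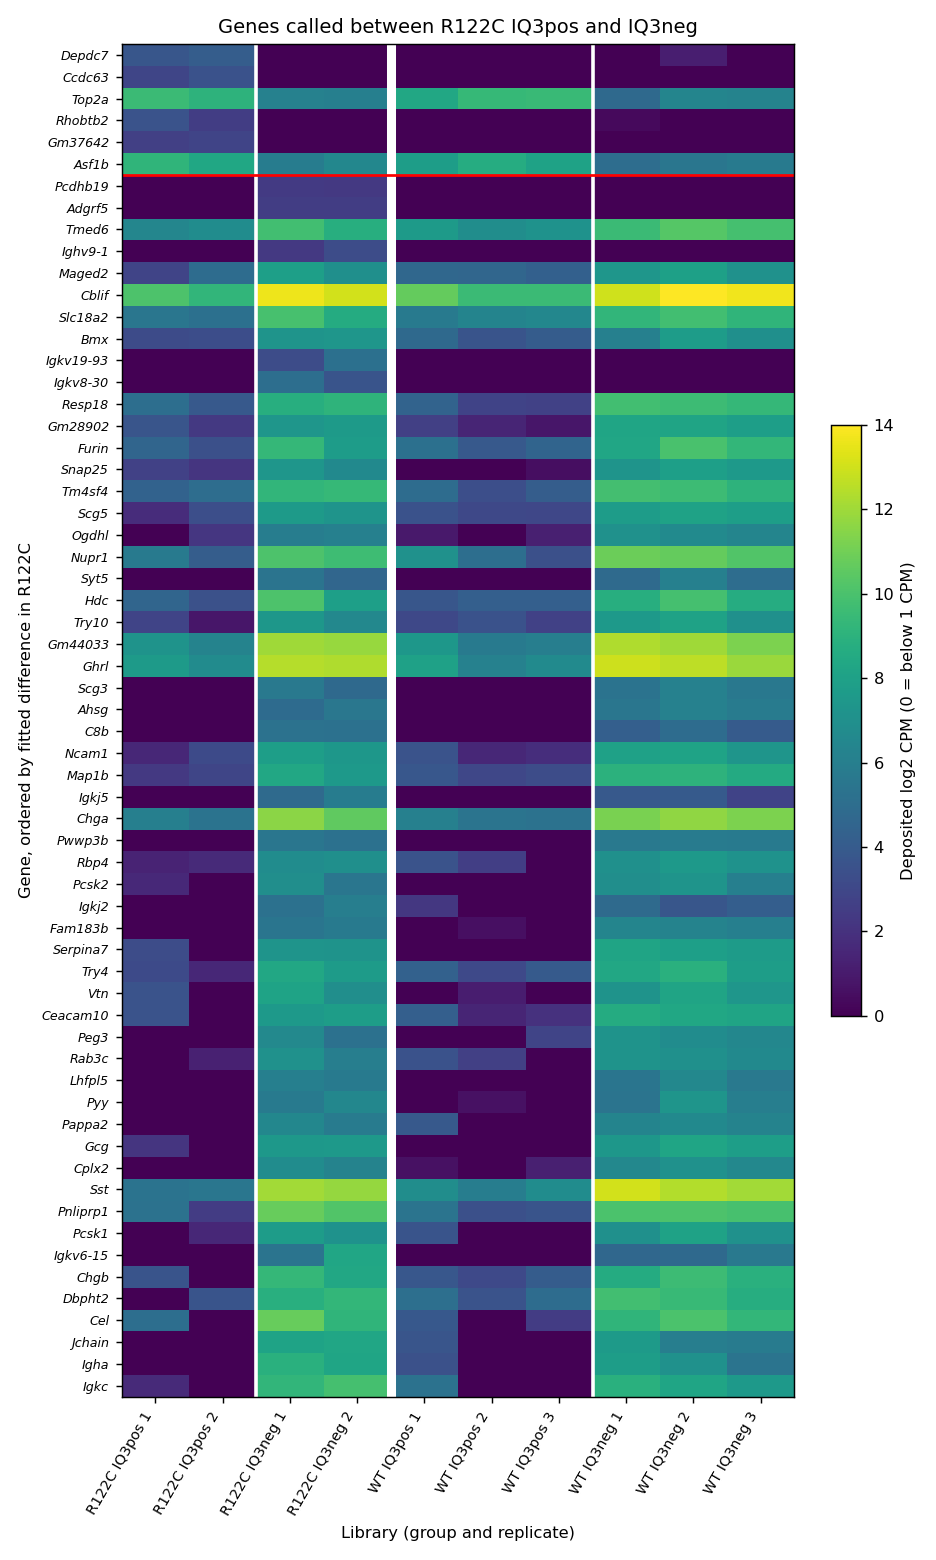
Heat map of the genes called between R122C IQ3pos and IQ3neg, leaving out 1 that is not reported here (rows, ordered by fitted difference) in all 10 libraries (columns), coloured by deposited log2 CPM, where 0 means below 1 CPM. The 6 genes above the red line were higher in R122C IQ3pos, those below it were lower, and the thick white line separates R122C from WT libraries.

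Top2a, the DNA topoisomerase that untangles chromosomes before division, was at log2 CPM 9.52 and 9.04 in IQ3pos and 6.13 and 6.04 in IQ3neg. Both IQ3pos libraries lay above both IQ3neg libraries, by 3.39 between the replicate 1 libraries and 2.99 between the replicate 2 libraries. The rise was 3.19 ± 0.56 on the log2 scale (SE, n = 2 against 2), 9.14-fold (adjusted p = 0.0234). With 1 R122C library left out in turn the adjusted p ran from 0.161 to 0.209. Asf1b, a histone chaperone that hands new histones to replicating DNA, was at 9.18 and 8.34 in IQ3pos and 5.89 and 6.46 in IQ3neg. It rose by 2.59 ± 0.49 (6-fold, adjusted p = 0.032), with 0.114 to 0.271 when 1 R122C library was left out. Top2a lies on the minus strand at chr11:98992943-99024189 and Asf1b on the plus strand at chr8:83955507-83970197 (GRCm38).

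Mki67, the proliferation antigen of the chromosome surface, was at 8.94 and 7.64 in IQ3pos and 5.72 and 6.17 in IQ3neg. Its libraries did not overlap either, but the difference of 2.34 ± 0.57 (5.08-fold) missed the threshold (adjusted p = 0.102). Promoters of such genes often carry CCAAT boxes, bound by NF-Y, and a CHR element, bound by the DREAM and MuvB complexes that time expression to late cell cycle. The windows of 300 bases around the start sites of the called genes Top2a and Asf1b and of Mki67 are shown for these elements (RefSeq, GRCm38.p6, chr11:99024140-99024439 minus strand, chr8:83955444-83955743 plus strand and chr7:135716330-135716629 minus strand). Capitals mark CCAAT, and TTTGAA or TTCGAA as CHR, read on either strand, and no marked matches overlap.
Top2a: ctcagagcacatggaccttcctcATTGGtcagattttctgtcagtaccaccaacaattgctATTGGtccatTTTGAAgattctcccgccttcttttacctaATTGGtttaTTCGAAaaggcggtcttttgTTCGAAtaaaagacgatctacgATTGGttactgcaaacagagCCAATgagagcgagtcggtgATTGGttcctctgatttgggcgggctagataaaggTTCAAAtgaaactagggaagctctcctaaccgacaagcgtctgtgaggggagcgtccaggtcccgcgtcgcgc
Asf1b: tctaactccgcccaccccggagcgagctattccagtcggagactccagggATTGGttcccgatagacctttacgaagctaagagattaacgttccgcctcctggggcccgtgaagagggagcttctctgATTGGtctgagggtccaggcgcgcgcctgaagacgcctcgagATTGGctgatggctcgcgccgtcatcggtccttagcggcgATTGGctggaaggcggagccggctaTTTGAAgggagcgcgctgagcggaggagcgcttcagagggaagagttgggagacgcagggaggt
Mki67: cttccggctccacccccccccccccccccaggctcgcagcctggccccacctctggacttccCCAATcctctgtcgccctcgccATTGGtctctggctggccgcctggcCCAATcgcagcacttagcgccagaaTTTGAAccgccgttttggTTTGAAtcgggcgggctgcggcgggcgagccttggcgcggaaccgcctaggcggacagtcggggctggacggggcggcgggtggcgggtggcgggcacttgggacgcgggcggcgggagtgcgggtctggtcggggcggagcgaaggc
The Top2a window held 6 CCAAT boxes and 4 CHR matches, that of Asf1b 4 and 1, and that of Mki67 3 and 2. The Asf1b CHR match began 14 bases before the RefSeq start site. That site lies inside the GENCODE span given above for Asf1b and not at its first base, so the position holds for the RefSeq start only. Of the 32 mitosis genes with a window, 26 (81.2%) held a CHR match and 24 (75%) a CCAAT box, against 19.2% and 37.4% of all 32851 windows. Of 32 DNA replication genes 6 (18.8%) held a CHR match and 20 (62.5%) a CCAAT box. The RUNX motif, TGTGGT or TGCGGT on either strand, was in 4 of the 32 mitosis windows (12.5%), 8 of 32 DNA replication windows (25%) and 8 of the 41 windows of genes that fell (19.5%), against 22.4% of all windows. A match describes letters and is no evidence of binding.

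The mitosis list as a whole lay on the high side. Of 37 mitosis genes tested, Top2a alone passed, and the median difference was 2.30, beside 0.19 over all genes tested. Both IQ3pos libraries lay above both IQ3neg libraries for 36 of the 37, beside 27.4% of all genes tested. Their summed level was 4180 and 8540 CPM in IQ3pos and 1190 and 1360 CPM in IQ3neg, ordered by size. The median was 2.91 within replicate 1 and 1.47 within replicate 2. Smc4, a condensin subunit, was at 7.83 and 7.53 against 5.35 and 5.41 (adjusted p = 0.0913). Cdk1, the kinase that starts mitosis, was at 8.91 and 8.28 against 5.71 and 6.15 (adjusted p = 0.179). Birc5, a subunit of the chromosomal passenger complex, was at 8.95 and 8.13 against 6.05 and 6.77 (adjusted p = 0.169). The exception to the separation was Kif4, a chromosome motor, at 7.26 and 5.09 in IQ3pos and 5.16 and 5.09 in IQ3neg.

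DNA replication genes followed with a smaller shift. None of the 37 tested passed, 36 differences were above 0, and the median was 1.76 (1.98 within replicate 1, 1.40 within replicate 2). On the high side 30 had no overlap, or 29 without the 1 whose direction the filter fixed. Over all tested genes, 7872 of 13572 differences were above 0 and 27.4% had no overlap on the high side. Summed levels were 2800 to 3790 CPM in IQ3pos and 936 to 1040 CPM in IQ3neg. Rrm2, the regulated subunit of ribonucleotide reductase, was at 8.09 and 7.89 against 5.77 and 5.90 (adjusted p = 0.126). Tyms, which makes thymidylate, was at 8.10 and 7.86 against 5.93 and 6.46 (adjusted p = 0.13). The MCM helicase subunits were uneven. Mcm3 was at 6.74 and 6.82 against 4.62 and 5.08, whereas Mcm2 was at 5.19 and 3.87 against 4.89 and 3.03, where the libraries overlapped. Pold1, a DNA polymerase subunit, was the member with a difference below 0, at 0 in both IQ3pos libraries and 1.46 and 1.21 in IQ3neg. The filter fixed its direction.

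The other 4 called genes on the high side were at 0 in both IQ3neg libraries, so the filter fixed their direction. Depdc7, which holds a DEP domain, was at 3.72 and 4.13 in IQ3pos (adjusted p = 0.0131). Ccdc63, known in mouse from sperm flagellum formation, was at 2.95 and 3.50 (adjusted p = 0.012). Rhobtb2, which holds BTB domains, was at 3.59 and 2.53 (adjusted p = 0.024), and the predicted transcript Gm37642 at 2.64 and 2.88 (adjusted p = 0.0198). These genes were at 0 in at least 5 of the 6 WT libraries. Such libraries show almost no spread but count in the shared estimate, which lowers the spread estimated for these genes. Fitted on the R122C libraries alone, each had an adjusted p of 0.225, and none passed without IQ3neg replicate 1 or 2 (0.0589 to 0.122).

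**Figure D2:**
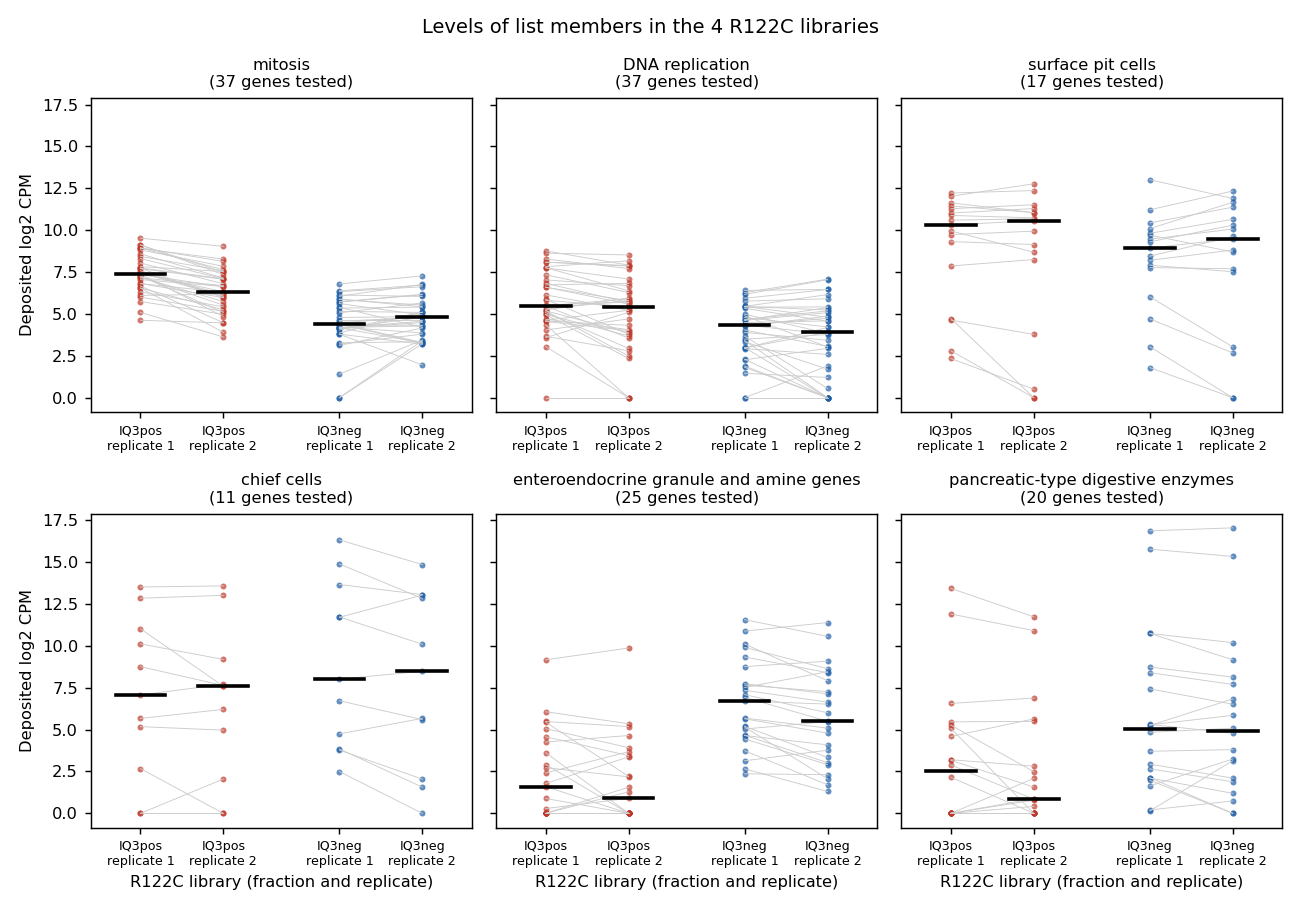
Deposited log2 CPM of the tested members of 6 gene lists in the 4 R122C libraries, labelled by fraction and replicate. Each point is a gene, grey lines join a gene within a fraction and black bars are medians. Mitosis and DNA replication members sit higher in both IQ3pos libraries, while endocrine granule genes and pancreatic-type enzymes sit lower.

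Enteroendocrine hormones were far lower in IQ3pos. Sst, encoding somatostatin, the D-cell hormone that restrains acid and gastrin, was at 5.32 and 5.47 in IQ3pos and 12.04 and 11.79 in IQ3neg. The fractions were far apart in each replicate, and Sst fell by 6.52 ± 0.46 on the log2 scale (SE, n = 2 against 2), 91.9-fold (adjusted p = 3.13e-05, at most 0.0115 with any 1 R122C library left out). Ghrl, encoding the hunger hormone ghrelin, was at 7.64 and 6.77 against 12.45 and 12.34, 36.5-fold lower (adjusted p = 0.00166). It passed without IQ3pos replicate 1 (0.0161) and missed without each of the others (0.0589 to 0.0817). The predicted gene Gm44033 lies within Ghrl on the opposite strand and gave nearly the same values (36.4-fold lower). As no source used here gives the strandedness, reads of the 2 genes cannot be told apart. Gcg, the proglucagon gene, was at 2.18 and 0 against 7.46 and 7.51 (adjusted p = 0.00367), and Pyy, encoding peptide YY, at 0 in both against 5.74 and 6.49 (adjusted p = 0.0136).

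Of 10 peptide genes tested these 4 were called. The filter fixed the direction of the 4 that were at 0 in both IQ3pos libraries, and the other 6 had both IQ3pos libraries below both IQ3neg libraries. The median difference of the 10 was -3.51 (-2.72 within replicate 1, -5.10 within replicate 2). Summed levels of the list were 266 and 362 CPM in IQ3pos and 9370 and 10400 CPM in IQ3neg, ordered by size. Nucb2, the source of nesfatin, differed less, at 6.56 and 6.79 against 8.27 and 8.14 (adjusted p = 0.121). Gast, encoding gastrin, was at 4.59 and 0 against 6.14 and 4.78 (adjusted p = 0.719). Nts, Vip, Insl5 and Calca were at 0 in all 4 libraries. The start region of Sst holds the cAMP response element through which CREB acts, and its window is shown for that element (chr16:23890795-23891094, minus strand), with the CRE letters TGACGTCA in capitals.
Sst: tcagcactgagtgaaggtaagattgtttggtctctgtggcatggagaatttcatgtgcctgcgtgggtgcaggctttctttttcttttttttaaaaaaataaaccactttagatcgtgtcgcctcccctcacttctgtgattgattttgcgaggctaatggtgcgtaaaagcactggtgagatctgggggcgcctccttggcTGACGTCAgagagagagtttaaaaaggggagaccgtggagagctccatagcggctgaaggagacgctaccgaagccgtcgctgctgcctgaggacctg
The match began 48 bases before the start site. The CRE letters, read on both strands, were in 5 of the 41 windows of genes that fell (12.2%), against 1.79% of all windows. They were in 4 of 18 windows of granule and amine genes (22.2%) and 1 of 17 of peptide genes (5.88%). Lists on the high side held them too, in 3 of 32 mitosis windows (9.38%) and 2 of 32 DNA replication windows (6.25%). The windows of Chga and Map1b held none.

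Genes of the endocrine granule and amine list had 11 calls. Chga, encoding chromogranin A, which packs hormones into granules, was at 6.07 and 5.35 in IQ3pos and 11.56 and 10.57 in IQ3neg. The gap was alike within the replicates (-5.50 and -5.22), and Chga fell 41-fold (5.36 ± 0.47 log2, adjusted p = 0.000249, at most 0.0162 with any 1 R122C library left out). Chgb, its relative chromogranin B, was at 3.62 and 0 against 9.34 and 8.40 (adjusted p = 0.00257). Of 25 granule and amine genes tested, 11 fell and none rose. Of the 17 above 0 in an IQ3pos library, 16 did not overlap in the lower direction, beside 1527 of all 12590 such genes. The filter fixed the direction of the other 8. The median difference was -4.16, and all 25 were above 0 in both IQ3neg libraries while 10 and 12 of them were at 0 in IQ3pos. Vamp2, a vesicle fusion protein used by many cells, was the member that overlapped, at 2.41 and 3.68 against 5.20 and 3.34.

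The prohormone convertases fell together. Pcsk1 was at 0 and 1.56 in IQ3pos and 7.74 and 7.13 in IQ3neg (adjusted p = 0.0185), and Pcsk2 at 1.59 and 0 against 6.93 and 5.50 (adjusted p = 0.0248). Scg5, a chaperone of PCSK2, was at 1.78 and 3.37 against 7.65 and 7.27, 29.5-fold lower (adjusted p = 0.00241). Scg3, which sorts granule cargo, was at 0 in both against 5.64 and 4.79 (adjusted p = 0.0279). Furin, a convertase of the general secretory pathway outside the endocrine list, was 23.1-fold lower, at 4.56 and 3.43 against 9.32 and 7.73 (adjusted p = 0.00932). Without 1 R122C library Scg5 ranged from 0.0094 to 0.0859, Furin from 0.0478 to 0.193, and Pcsk1, Pcsk2 and Scg3 passed in none of the 4 fits.

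Histamine machinery of the enterochromaffin-like cell fell as well. Hdc, which makes histamine, was at 4.57 and 3.45 in IQ3pos and 10.11 and 7.92 in IQ3neg, 32.1-fold lower (adjusted p = 0.00424, 0.0162 to 0.114 with 1 R122C library left out). Slc18a2, the transporter that loads histamine and serotonin into vesicles, was at 5.48 and 5.18 against 9.91 and 8.64, 15.3-fold lower (adjusted p = 0.00241, 0.0116 to 0.061). The serotonin enzyme Tph1 was at 0 in both IQ3pos libraries and 3.14 and 3.77 in IQ3neg (adjusted p = 0.18). Ddc, the decarboxylase shared by several amines, was at 4.26 and 4.65 against 6.71 and 6.52 (adjusted p = 0.121).

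Of the called vesicle genes, Snap25, a membrane fusion protein, was at 2.73 and 2.18 in IQ3pos and 7.35 and 6.64 in IQ3neg, 23.3-fold lower (adjusted p = 0.0123). Cplx2, which clamps vesicle fusion, was at 0 in both against 6.78 and 6.26 (adjusted p = 0.00424). Syt5, a calcium sensor of vesicles, was at 0 in both against 5.37 and 4.62 (adjusted p = 0.045), and Rab3c, a vesicle GTPase, at 0 and 1.28 against 7.09 and 6.00 (adjusted p = 0.0248). Map1b, a microtubule-associated protein of neurons, was at 2.32 and 2.95 against 8.40 and 7.49, 39.8-fold lower (adjusted p = 0.000804, at most 0.0371 with any 1 R122C library left out). The adhesion gene Ncam1 fell too (38.3-fold, adjusted p = 0.0078). Resp18, a granule protein, was 21.6-fold lower (adjusted p = 0.00424), and its antisense neighbour Gm28902, 22.2-fold lower (adjusted p = 0.012), overlaps it, so their reads cannot be told apart. Rbp4, the retinol carrier, was at 1.39 and 1.66 against 6.81 and 7 (41.7-fold, adjusted p = 0.0248), and the imprinted gene Peg3 at 0 in both against 6.57 and 5.23 (adjusted p = 0.0279). Markers of enteric neurons and glia were at 0 in both IQ3pos libraries for all 9 listed genes and summed to 8.34 and 26.6 CPM in IQ3neg. Their part in these falls was not tested.

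Of 9 transcription factors of the endocrine lineage tested, none passed. Of these, 5 were at 0 in both IQ3pos libraries, which fixed their direction, and of the other 4 there were 3 with no overlap in the lower direction. The median was -2.35, and Pdx1, a factor of antrum and pancreas, was the member with a difference above 0 (0.90, adjusted p = 0.814). St18, a zinc finger factor of endocrine cells, was at 2.91 and 3.15 in IQ3pos and 6.72 and 5.94 in IQ3neg (adjusted p = 0.0973). Neurod1, which drives endocrine maturation, was at 0 in both against 2.4 and 3.39 (adjusted p = 0.126). Isl1, a homeobox factor, was at 5.45 and 5.76 against 6.32 and 6.61 (adjusted p = 0.56). Neurog3, the factor that starts the lineage, was at 0 in all 4 libraries. Over the 3 enteroendocrine lists, 44 of 59 genes were tested and 15 fell.

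Chief cell genes were lower in IQ3pos, with 1 call. Cblif, gastric intrinsic factor, which in mouse is made by chief cells and carries vitamin B12, was at 10.12 and 9.19 in IQ3pos and 13.66 and 13.06 in IQ3neg. Both replicates showed the gap (-3.55 and -3.87), and the fall was 13.1-fold (3.71 ± 0.61 log2, adjusted p = 0.0143, 0.095 to 0.287 with 1 R122C library left out). Of 11 chief genes tested, 10 differences were below 0 and 6 did not overlap, 1 of them by the filter, with a median of -1.57. Pgc, the zymogen pepsinogen C, was at 13.51 and 13.58 against 16.33 and 14.85 (adjusted p = 0.382). Chia1, an acidic chitinase, was at 11.02 and 7.59 against 14.89 and 12.83 (adjusted p = 0.0802). Bhlha15, the transcription factor MIST1 of secretory cells, was at 0 in both against 3.85 and 1.56 (adjusted p = 0.211). Nupr1, a stress-response nuclear protein outside the lists, fell 31-fold, from 10.10 and 9.64 in IQ3neg to 5.72 and 4.10 (adjusted p = 0.024).

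Pancreatic-type enzymes held the top place in IQ3neg, where their list summed to 179000 and 180000 CPM, against 5570 and 15100 CPM in IQ3pos. Clps, the lipase cofactor colipase, was at 13.43 and 11.73 in IQ3pos and 16.87 and 17.04 in IQ3neg, 20.7-fold apart without passing the test (4.37 ± 1.16 log2, adjusted p = 0.129). Pla2g1b, a secreted phospholipase, was at 11.90 and 10.91 against 15.77 and 15.34 (adjusted p = 0.0668). The called members were less abundant. Pnliprp1, a lipase-related protein, was at 5.27 and 2.49 against 10.74 and 10.19, 96.1-fold lower (adjusted p = 0.00217). Cel, the bile salt-activated lipase, was at 5.08 and 0 against 10.74 and 9.17 (adjusted p = 0.0279). The trypsinogens Try4 (51.2-fold, adjusted p = 0.00169) and Try10 (34.4-fold, adjusted p = 0.00709) belong to a family of near-identical genes, so their reads may be shared. Of 20 tested members 4 fell, with a median of -2.88. The filter fixed the direction of 5, and of the other 15 there were 10 with no overlap in the lower direction. In the other direction, 2 members had a difference above 0 within both replicates. Of these, Cela1, an elastase, was at 6.56 and 6.88 against 5.24 and 6.83. Acinar genes such as Cpa1, Ctrl, Prss2 and Sycn were at 0 in all 4 libraries. Without 1 R122C library, Pnliprp1 ranged from 0.00387 to 0.115, Try4 from 0.00614 to 0.0859, Cel from 0.0131 to 0.4 and Try10 from 0.0114 to 0.157.

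Tuft cell genes were lower as a set of values, again with 1 call. Bmx, a TEC-family kinase of tuft cells, was at 3.19 and 3.30 in IQ3pos and 7.27 and 7.36 in IQ3neg, 16.8-fold lower (adjusted p = 0.00944, 0.0903 to 0.13 with 1 R122C library left out). All 23 tested tuft genes had a difference below 0, with a median of -2.80. The filter fixed the direction of 2, and of the other 21 there were 19 with no overlap. Trpm5, the taste-signalling channel, was at 0 and 2.94 against 6.99 and 5.95 (adjusted p = 0.121). Dclk1, the kinase used as a tuft marker, was at 4.88 and 3.83 against 8.47 and 7.63 (adjusted p = 0.223). Tuft list levels summed to 909 and 1060 CPM in IQ3pos and 3140 and 4040 CPM in IQ3neg, ordered by size.

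Among called genes in no list, Vtn, encoding the plasma protein vitronectin, was at 3.57 and 0 in IQ3pos and 8.11 and 6.94 in IQ3neg (adjusted p = 0.0254). Serpina7, thyroxine-binding globulin, was at 3.28 and 0 against 7.26 and 7.19 (adjusted p = 0.0184). Ahsg, encoding fetuin-A, was at 0 in both against 4.88 and 5.57 (adjusted p = 0.0259), and C8b, a chain of complement, at 0 in both against 5.28 and 5.21 (adjusted p = 0.0254). These genes were all called lower in WT as well. Without 1 R122C library, Vtn and Serpina7 passed in 1 of 4 fits each (0.0121 and 0.00614 without IQ3pos replicate 1) and the other two in none.

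Of the other genes that fell, Tm4sf4, a tetraspan membrane protein, was at 4.43 and 5.00 in IQ3pos and 9.21 and 9.37 in IQ3neg (23.9-fold, adjusted p = 0.00166, 0.0259 to 0.0601 with 1 R122C library left out). The long noncoding RNA Dbpht2 was at 0 and 3.63 against 8.84 and 9.27 (adjusted p = 0.00257). Tmed6, a cargo receptor of the early secretory pathway, was at 6.42 and 6.79 against 9.75 and 8.76 (6.29-fold, adjusted p = 0.0216). Ceacam10, of the carcinoembryonic antigen family, was at 3.59 and 0 against 7.54 and 7.78 (adjusted p = 0.024) and was the called member among 16 tested metaplasia genes, whose median was 0.20. Maged2, of the MAGE family, was 11.5-fold lower (adjusted p = 0.0298). Lhfpl5, Fam183b, Pwwp3b and Pappa2 were at 0 in both IQ3pos libraries, as were Adgrf5 and Pcdhb19 at levels of 2.32 to 2.57 in IQ3neg. Ogdhl, related to a subunit of oxoglutarate dehydrogenase, was at 0 and 2.20 against 5.93 and 6.07 (adjusted p = 0.0407).

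Immunoglobulin transcripts, products of plasma cells, were present in the sorted IQ3neg libraries. Igkc, the kappa constant region, was at 1.68 and 0 in IQ3pos and 9.24 and 9.87 in IQ3neg (adjusted p = 0.012). Igha, the IgA heavy chain, was at 0 in both against 8.89 and 8.24 (adjusted p = 0.00424), and Jchain, which joins IgA units, at 0 in both against 8.14 and 8.27 (adjusted p = 0.00629). None of these 3 passed with any 1 R122C library left out (0.0563 to 0.203). Of 38 tested immunoglobulin genes 35 were at 0 in both IQ3pos libraries, so the filter fixed their direction, and 8 were called lower: Igkc, Igha, 4 variable segments that include Igkv6-15, Igkv8-30 and Ighv9-1, and the joining segments Igkj2 and Igkj5. Segments of 1 family resemble each other, so reads may be split among them. The summed immunoglobulin level was 6.22 and 0 CPM in IQ3pos and 1650 and 2150 CPM in IQ3neg, replicates 1 and 2, beside 344 to 1180 CPM in WT IQ3neg.

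Of the 14 plasma cell markers, 8 were tested and 3 were called, and the list summed to 46.0 to 66.7 CPM in IQ3pos and 1560 to 1600 CPM in IQ3neg. Sdc1, which epithelium also makes, was at 5.95 and 5.35 in IQ3pos and 5.90 and 5.25 in IQ3neg. Of the 8 tested, 7 had both IQ3pos libraries below both IQ3neg libraries. The filter fixed the direction of 4, and of the other 4 there were 3 with no overlap in the lower direction. The listed markers Tnfrsf17, Pou2af1, Prdm1 and Irf4 were at 0 in all 4 libraries. Of 25 immune markers, 10 were tested, none was called, and the list summed to 2.50 to 14.7 CPM in IQ3pos and 80.9 to 147 CPM in IQ3neg. Ptprc, the leukocyte antigen CD45, was at 2.86 and 0 against 5.46 and 5.47 (adjusted p = 0.25), while Cd3e, Ms4a1, Adgre1 and Itgam were at 0 throughout. Endothelial markers summed to 0 to 3.38 CPM and 11 to 19.4 CPM, and erythroid markers to at most 1.66 CPM in any R122C library. The summed plasma cell, immune and endothelial lists were thus higher in IQ3neg, as were the gene groups that fell. The part of such cells in those results was not tested.

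Surface pit genes lay on the high side without a call. Of 17 tested, 13 differences were above 0, 10 did not overlap in the higher direction, and the median was 1.04. Beside them, 7872 of all 13572 tested genes were above 0, 27.4% did not overlap in the higher direction, and the median was 0.19. Gkn1, a gastrokine of the surface mucosa, was at 12.22 and 12.37 in IQ3pos and 10.44 and 11.37 in IQ3neg (adjusted p = 0.455). Tff1, the pit trefoil factor, was at 12.02 and 12.77 against 10.09 and 11.67 (adjusted p = 0.418), and Muc5ac, the surface mucin, at 9.96 and 8.69 against 7.91 and 7.52 (adjusted p = 0.501). Psca, a surface antigen of mature pit cells, went the other way with 11.45 and 11.05 against 13.02 and 11.89 (adjusted p = 0.47). Of 12 mucous neck genes tested 6 were above and 6 below 0. The neck mucin Muc6 was at 9.63 and 8.36 against 9.89 and 9.53, and the neck trefoil factor Tff2 at 11.95 and 12.66 against 10.12 and 11.71 (adjusted p = 0.796 and 0.542).

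Parietal cell genes split. The acid pump subunit Atp4a was at 8.84 and 6.52 in IQ3pos and 8.66 and 6.52 in IQ3neg, so the replicates differed more than the fractions. Atp4b, its partner, was at 10.79 and 9 against 9.41 and 8.87 (adjusted p = 0.785). The gastrin receptor Cckbr, which enterochromaffin-like cells also carry, was at 0 and 3.54 against 7.32 and 5.32 (adjusted p = 0.168). Of 19 tested parietal genes none passed, 12 were above and 7 below 0, and the median was 0.48.

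Candidate stem and progenitor genes showed no common direction, with 8 of 17 above 0, none called and a median of -0.18. Stmn1, which destabilises microtubules and has been used as an isthmus marker, was at 8.68 and 8.00 against 6.18 and 6.70 (adjusted p = 0.359), and Hmgb2, a chromatin protein, at 8.83 and 7.98 against 6.03 and 6.90 (adjusted p = 0.221). Sox9 was level across the 4 libraries, at 8.97 and 8.95 against 9.11 and 9.18. Lgr5, a WNT-responsive receptor, was at 2.56 and 0 against 5.01 and 2.94, and Msi1, an RNA-binding protein, at 2.89 and 1.32 against 5.65 and 5.73 (adjusted p = 0.611 and 0.145). Cdkn1a, the p53-induced inhibitor p21, was at 3.63 and 3.52 against 6.42 and 5.83 (5.86-fold, adjusted p = 0.0962). Myc was at 6.52 and 5.02 against 5.61 and 4.68 and Ccnd1 at 4.89 and 5.75 against 5.03 and 4.62, both with overlap.

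Over all 13572 tested genes, 7872 differences were above 0 and 27.4% did not overlap in the higher direction. All 56 cytosolic ribosomal protein genes had a difference above 0, 34 without overlap, with a median of 0.75 and none called. That median was 0.37 without IQ3neg replicate 1 and 1.20 without IQ3neg replicate 2. Of 60 nuclear respiratory chain genes 59 were above 0 and none was called, with a median of 0.62, which was 0.28 without IQ3neg replicate 1 and 0.95 without IQ3neg replicate 2. CPM is a share of each library, and pancreatic-type enzymes alone summed to 179000 and 180000 CPM in IQ3neg. Their part in these shifts was not tested. The 25 MYC targets and ribosome biogenesis genes ranged from -1.35 to 1.74, with a median of 0.87 and none called. The 13 mitochondrially encoded transcripts instead had medians of opposite sign between the replicates, with a median of -1.58 within replicate 1 and 1.0 within replicate 2. For mt-Co1, a subunit of complex IV, the levels were 10.02 and 10.60 in IQ3pos and 11.65 and 9.80 in IQ3neg. Immediate early genes had a median of -1.14 within replicate 1 and 0.35 within replicate 2.

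No member was called in the lists of cholesterol synthesis (median 0.32), glycolysis and hypoxia (0.45), unfolded protein response (0.07), WNT targets (-0.18), TGF-beta and BMP targets (0.26), EGF family (0.34), antral genes (-0.79), intestinal genes (-1.21), MHC class II (-0.76), cell cycle inhibitors and p53 targets (-0.57) or RUNX family and cofactors (-0.13).

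**Figure D3:**
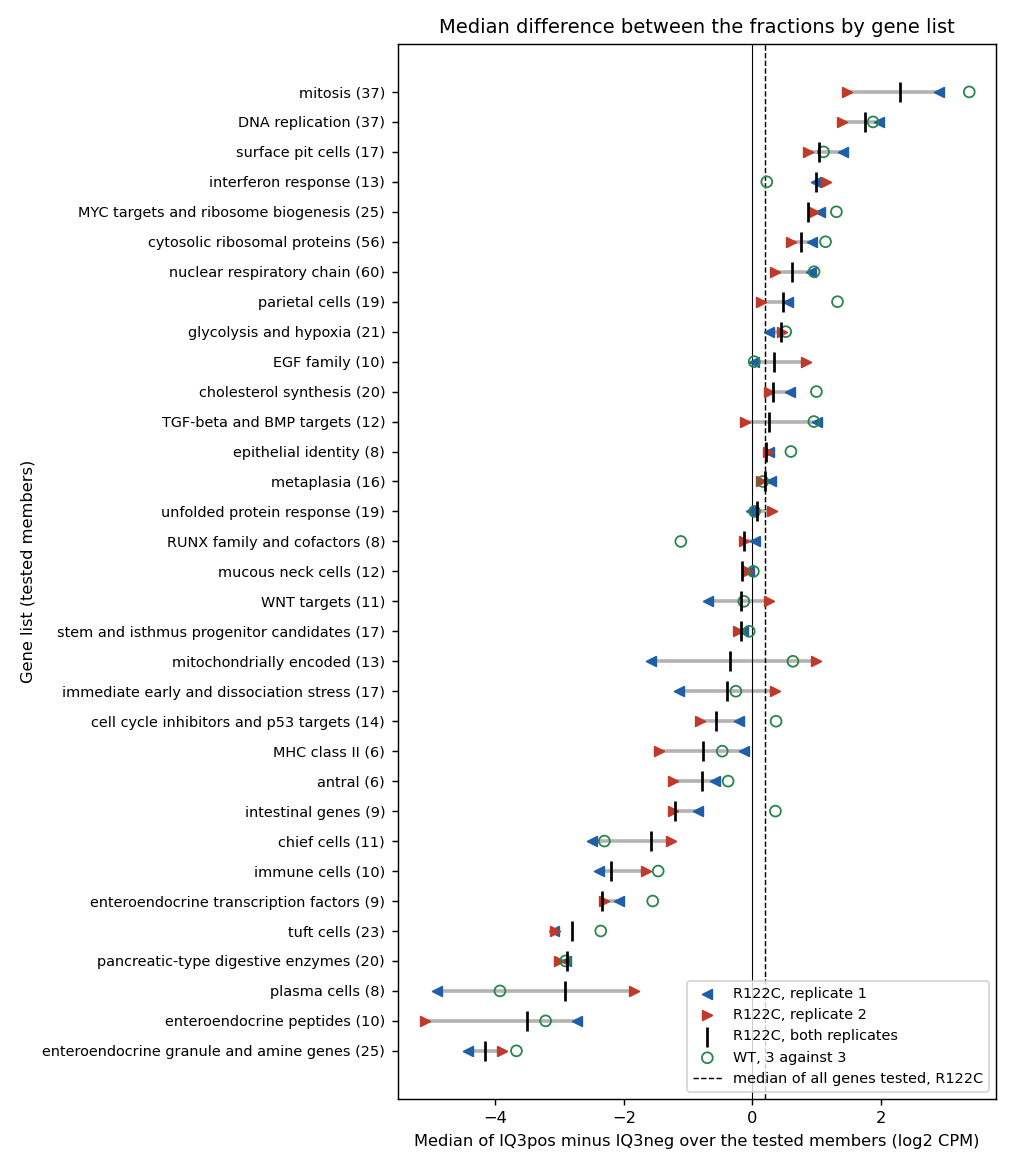
Median difference between the fractions (IQ3pos minus IQ3neg, log2 CPM) over the tested members of each gene list with at least 5 tested members. Triangles are the R122C replicates, black bars R122C as a whole, green circles WT, and the dashed line the median of all 13572 genes (0.19). Mitosis (2.30) and DNA replication (1.76) lie at the top and enteroendocrine granule genes (-4.16) at the bottom.

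Across all tested genes the replicate pairs, which also share a title code, shared a direction for 5090 genes above 0 and 3318 below 0, and all 63 called genes had the same sign in both. Among the called genes the falls could differ in size. Dbpht2 differed by -8.84 within replicate 1 and -5.64 within replicate 2, while Cel differed by -5.66 and -9.17. For Chga and Bmx the replicates were within 0.28 and 0.02 of each other.

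**Figure D4:**
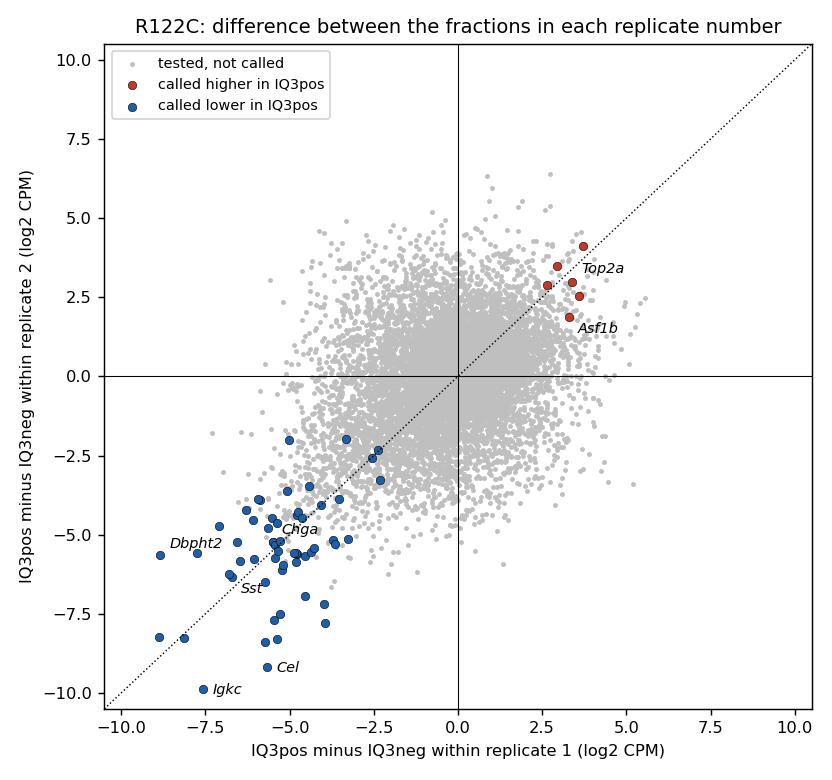
Difference between IQ3pos and IQ3neg in R122C within replicate 1 (x axis) against replicate 2 (y axis), in log2 CPM, for 13572 genes. Grey points were not called, the 6 red points were called higher and the 57 blue points lower, and the dotted line marks equal differences.

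The WT libraries gave 205 genes higher (1.51%) and 320 lower (2.36%) in IQ3pos over the same 13572 genes, which were filtered on R122C values. The WT and R122C libraries are separate samples, but both comparisons took the spread of each gene from the same fit. Calls shared by the genotypes are therefore not independent of each other. Of the 57 genes that fell in R122C, 52 were also called lower in WT, and of the 6 that rose, Top2a and Asf1b were called higher in WT. Of the 205 genes higher in WT, the R122C difference was above 0 for 204 and without overlap for 198. Of the 320 lower in WT it was below 0 for 311 and without overlap for 285. Over all tested genes, 7872 R122C differences were above 0 and 5700 below 0. Libraries did not overlap for 27.4% in the higher and 18.5% in the lower direction. Genes whose direction the filter fixed were not left out of these counts. In WT the groups held 3 libraries each, so the counts of calls are not a comparison of effect sizes.

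The difference between the genotypes was tested directly as an interaction, and 0 of 13572 genes (0%) passed with limma. At an unadjusted p under 0.05 there were 372, and the lowest adjusted p was 0.891. Top2a differed by 3.19 in R122C and 3.28 in WT, an interaction of -0.09 ± 0.72 (SE). Sst differed by -6.52 and -5.97, with an interaction of -0.55 ± 0.59, and Chga by -5.36 and -5.77, with 0.41 ± 0.61. The mitosis list had a median of 2.30 in R122C and 3.38 in WT, and 27 of its 37 members were called higher in WT against 1 in R122C. At an unadjusted p under 0.05, 1 of the 37 had an interaction. In WT IQ3neg replicate 1 the list summed to 194 CPM with 15 of its 37 genes at 0, against 929 and 947 CPM with none at 0 in the other WT IQ3neg libraries, and its part in the WT values was not tested.

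Of the 9 genes called in R122C and not in WT, 7 were at 0 in all 6 WT libraries: 3 immunoglobulin segments, among them Igkv8-30 and Ighv9-1, with Adgrf5, Pcdhb19, Ccdc63 and Gm37642. Igkv8-30 had the lowest interaction p (unadjusted p = 0.000122, adjusted p = 0.891). Rhobtb2 and Depdc7 were each above 0 in 1 WT library, at 0.34 in IQ3neg replicate 1 and at 1.17 in IQ3neg replicate 2. In each of these 9 genes the WT libraries showed little or no spread, which lowered the shared estimate. Each had a limma adjusted p of 0.225 when the R122C libraries were fitted alone. Snap25 was at 2.73 and 2.18 in R122C IQ3pos and at 0, 0 and 0.51 in WT IQ3pos, with differences of -4.54 and -7.39 between the fractions (interaction 2.85 ± 0.93, unadjusted p = 0.00894, adjusted p = 1).

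**Figure D5:**
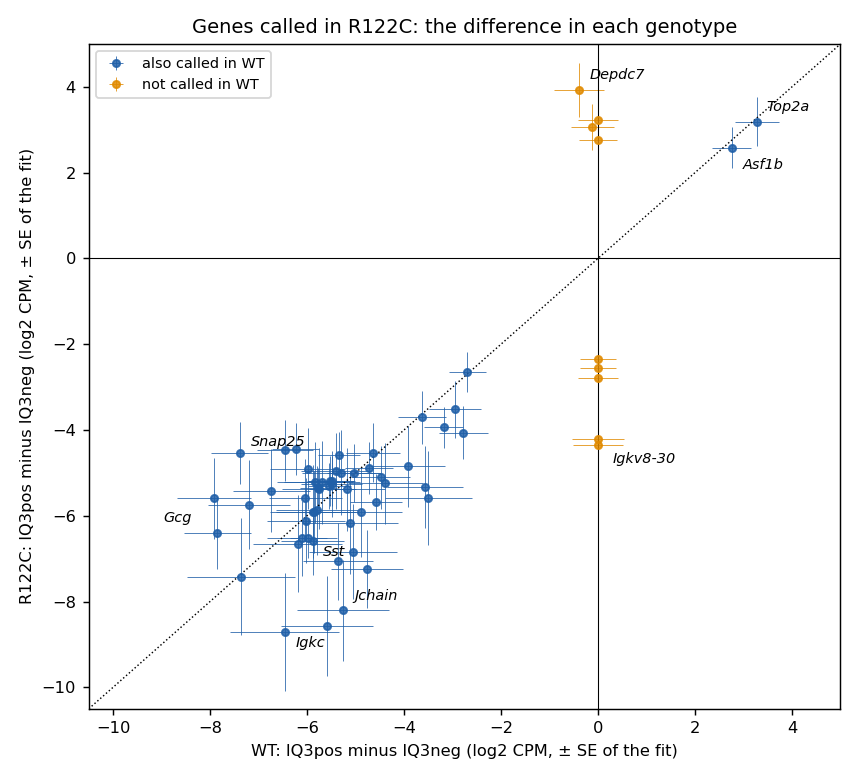
Difference between IQ3pos and IQ3neg (log2 CPM, bars are the SE of the fit) in WT (x axis) and R122C (y axis) for the 63 genes called in R122C. Blue points were also called in WT, orange points were not, and the dotted line marks equal differences. The 9 orange points lie near 0 on the WT axis.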

How the data were processed

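Per the labels' protocols, glands were released with EDTA, digested to single cells, stained for EpCAM and sorted, and RNA was amplified by PCR before library preparation. The submitters' processing notes name the build GRCm38 (mm10) and, as tools, edgeR, featureCounts, Subread (2.0.0) and STAR (2.7.1a). Aligner settings, strandedness and any scaling of libraries: not given in the sources used here.

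The authors deposited log2 CPM values for 55276 genes in 10 libraries. From the values, no pseudocount was added and anything below 1 CPM is listed at 0, so differences against a 0 depend on that floor and are given without a fold. With the library totals recovered as CPM divisors, values were whole multiples of 1 read within a tolerance of 0.05 for 100% of entries. In 26 rows the symbol had become a date, of which 14 were tested and none is named. Reads were amplified and carry no stated molecular identifiers, so depth gives counting precision only.

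Differences were fitted with limma 3.58.1 in R 4.3.3: 4 group means on the deposited values of the 10 libraries, with a mean-variance trend in the moderation, 6 residual degrees of freedom and 7.2 prior ones, two-sided, with Benjamini-Hochberg adjustment over 13572 genes and a threshold of 0.05. The interaction contrast came from the same fit. The procedure was tested on simulated data with changes planted only in genes with a mean well above the floor. It does not cover calls of genes with a low mean level. Groups came from the titles. Gene lists (39) were described by counts and medians and not tested. The members, lists and alternatives were chosen with earlier results of these data known. Genes named were 26 fixed genes, the 12 largest rises and falls among called genes, up to 3 called members per list (or the most abundant tested member), the 6 lowest interaction p-values and the 6 most abundant called genes in each direction. The remaining called genes, and other list members, were named after their values were seen, and some items are not reported here. Alternatives were other filters, pseudocounts, centring, a replicate block, no trend, the R122C libraries alone and leaving out single libraries. Coordinates are from GENCODE M21 on GRCm38, which held 13364 of the tested symbols, and promoter windows run from 250 bases before to 50 after each RefSeq start.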

Additional observations from a re-analysis of the deposited data

How the results depend on the processing

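With 2 libraries a side, the counts of calls moved with many choices. No called gene named here changed sign under any alternative, but some list medians did. With 1 library left out, medians reached -0.13 for parietal genes, 0.47 for MHC class II, 0.22 for WNT targets, -0.09 for TGF-beta and BMP targets and -0.08 for the unfolded protein response. They reached 0.51 for mitochondrially encoded transcripts and 0.38 for immediate early genes, whose medians over all 4 libraries were -0.35 and -0.39. Each is of opposite sign to the median over all 4 libraries. The 6 higher genes became 3 with a mean above log2 CPM 2, 17 with each library centred on its median, 1 with the R122C libraries alone and 13 without WT IQ3neg replicate 1, and ranged from 0 to 13 with 1 library left out. The 57 lower genes became 90 with log2(CPM + 5), 90 with median centring, 149 with no intensity trend and 13 with the R122C libraries alone, and ranged from 13 to 59 with 1 library left out. The interaction gave 0 to 1 genes with 1 library left out, the 1 being Igkv8-30 without R122C IQ3neg replicate 2, and 0 under the other alternatives fitted to both genotypes. Deviations from the group means of libraries that share a replicate number correlated by 0.117 in R122C and 0.088, 0.1 and 0.142 in WT. With 2 libraries a side, the R122C deviations within a fraction mirror each other. These values cannot decide whether the libraries are paired. The replicate block gave 4 higher and 44 lower genes over all 10 libraries, with 44 of the 63 still called. Asf1b was not among them (adjusted p = 0.0623 with limma), and Top2a was (0.00675). With the R122C libraries alone, the replicate block left 1 residual degree of freedom and gave 288 higher and 204 lower genes.

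Beyond the spread between replicates, these list medians moved. The chief cell median was -2.49 within replicate 1 and ranged from -2.44 to -1.10 with 1 library left out, and the parietal median ranged from -0.13 to 0.81. The enteroendocrine peptide median was -2.03 with no filter, -5.65 with the stricter filter, -2.08 with log2(CPM + 5), -2.72 within replicate 1 and -5.10 within replicate 2, with -4.66 to -3.02 leaving out 1 library. The granule and amine median was -3.11 with log2(CPM + 5). The endocrine factor median was -0.55 with no filter and also with genes above 0 in 2 of the 10 libraries, -1.02 with log2(CPM + 5), and -2.40 to -1.34 leaving out 1 library. The pancreatic enzyme median was -1.65 with no filter, -3.97 with the stricter filter and -1.39 with log2(CPM + 5). The plasma cell median was -1.96 with no filter, -5.91 with the stricter filter, -1.66 with log2(CPM + 5), -4.91 within replicate 1 and -1.84 within replicate 2, with -4.47 to -1.68 leaving out 1 library. The cause of these moves was not tested, beyond the different genes that each filter lets in. Under all alternatives the median ran from 1.47 to 2.94 for mitosis, 1.35 to 2.03 for DNA replication, 0.82 to 1.42 for pit and -3.35 to -2.46 for tuft genes.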

Other observations

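Values that belong in no group comparison above concerned genes measured in few libraries. Ctif, a translation initiation factor of newly exported messages, was at 3.75 and 2.60 in R122C IQ3pos, at 0 in both R122C IQ3neg libraries and all 3 WT IQ3pos libraries, and at 0, 0.90 and 1.99 in WT IQ3neg. It was among the 6 genes of lowest interaction p (unadjusted p = 0.0007, adjusted p = 1). Ifit1, an RNA-binding effector, was at 0 and 5.82 in R122C IQ3pos and 1.18 and 4.68 in IQ3neg, replicates 1 and 2, so both replicate 2 libraries were high. Oasl2, an antiviral effector, was at 4.52 and 6.39 against 3.20 and 3.95. Of 13 tested interferon response genes none was called, with a median of 0.99. Tagln, a smooth muscle protein, was at 3.67 in R122C IQ3pos replicate 2 and at 0, 0.24 and 0 in the other R122C libraries. The keratin Krt13 of squamous epithelium was at 0.50 and 2.47 in R122C IQ3pos and at 0 in IQ3neg.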
